A study of Mus musculus with 6 samples.

Results

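The bone morphogenetic protein (BMP) ligand genes Bmp2, Bmp4 and Bmp7, the extracellular antagonist and modulator genes Nog, Chrd, Fst, Grem1 and Twsg1, the pseudoreceptor gene Bambi and the protease gene Bmp1 were followed in mouse epiblast stem cells cultured without or with Activin A. These 10 genes were taken from a fixed list of names, out of 52609 annotated genes. All of their transcripts in the deposited files were summed, 26 of 133399 matched transcripts. Poly(A) RNA was sequenced from 3 libraries without Activin A and 3 with it. Epiblast stem cells are cultured from the dissected post-implantation epiblast and are pluripotent in a primed state. The medium held 20% serum replacement, and inactivated embryonic fibroblasts served as feeders. Cells of the group with Activin A received it at 20 ng/mL, and it was left out for the other group. All 6 cultures had FGF2 at 10 ng/mL, the Wnt secretion inhibitor IWP2 at 5 µM and SB431542 at 2 µM, which blocks the kinases of the type I receptors used by Activin, TGF-beta and Nodal. The labels name no added BMP, strain or age.

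The libraries held 13567995 to 14992042 estimated reads without Activin A and 9946521 to 16350923 with it. For replicate 1 of the libraries without Activin A, the growth factor entry lists Activin A, unlike its title and genotype, and the treatment text names it for all 6 libraries. The library with Activin A replicate 3 stood apart from its group, with a chi-square per degree of freedom of 6.07 and 7.19 against its replicates, compared with 3.66 between those. With both of these libraries left out, 5 of the 10 genes were still called higher and 1 lower. Among all genes tested in that fit, 2366 were higher and 2622 lower, against 2155 and 2350 with all 6 libraries. The series design mentions 2 lines, so a difference between lines and a difference in Activin A cannot be told apart. Nothing says that the samples came from separate cultures, so p-values reflect the spread of these samples alone, and it may be technical. Of 12 epiblast stem cell markers on a list of textbook genes, all were detected, 2 rose, 9 fell and 1 did not pass. Their level was summed over all transcripts, coding or not, in transcripts scaled by length and library (TPM). It was 460 to 498 TPM without Activin A and 811 to 853 TPM with it. Pou5f1 averaged 121 ± 2.35 CPM without and 373 ± 28.0 CPM with Activin A (SD, n = 3 each), where CPM is a count scaled by the TMM library size. The 2 markers that rose were Lin28a and Sox2. Lin28a averaged 535 ± 5.47 CPM without and 337 ± 9.08 CPM with Activin A, and Sox2 109 ± 3.43 and 82.1 ± 4.11 CPM. Over all tested genes, 14.0% were higher and 15.2% lower.

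BMPs are secreted dimers of the TGF-beta family that bind type I and type II receptor kinases, and the activated receptors phosphorylate SMAD1, SMAD5 and SMAD9, which enter the nucleus with SMAD4 and switch on targets such as the Id genes. Noggin, chordin, gremlin and follistatin bind ligands outside the cell and keep them from their receptors. In the early mouse embryo, Bmp4 made next to the epiblast induces mesoderm and germ cell fates, and blocking BMP signals favours neural fate in the ectoderm.

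Sequence bears on how Bmp4, the ligand gene with the most transcript forms, was measured and where it starts. The first is the 5′ end of the transcript Bmp4-204 (GENCODE M21, chr14:46387275-46387304, minus strand of GRCm38). Its 24 capital bases lie outside the exons of the other Bmp4 transcripts and the lower-case bases are shared.
Bmp4-204: ATTATATTCAAATATTCATTTTAGgagcca
The second is the 250 bases before the RefSeq start of Bmp4 (GRCm38.p6, chr14:46390670-46390919, minus strand), shown beside those of Grem1 (chr2:113758649-113758898, minus strand), a BMP-binding gene that did not pass the test. Capitals mark the SMAD box CAGAC and the GC-rich SMAD motif GGCGCC, searched on both strands, which do not overlap each other here.
Bmp4: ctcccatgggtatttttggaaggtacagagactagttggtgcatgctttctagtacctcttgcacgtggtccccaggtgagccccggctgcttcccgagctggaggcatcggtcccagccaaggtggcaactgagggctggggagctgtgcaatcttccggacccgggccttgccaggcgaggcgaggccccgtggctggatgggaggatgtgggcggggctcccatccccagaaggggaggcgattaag
Grem1: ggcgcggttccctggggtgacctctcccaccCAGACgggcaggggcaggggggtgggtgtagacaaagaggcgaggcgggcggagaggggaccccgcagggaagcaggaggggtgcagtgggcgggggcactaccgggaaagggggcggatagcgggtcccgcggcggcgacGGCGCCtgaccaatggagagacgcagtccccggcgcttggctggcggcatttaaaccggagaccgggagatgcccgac
Neither motif is in the Bmp4 window, and the Grem1 window holds 1 of each. The Bmp4 window lies before the start of Bmp4-201, at 46390669. Bmp4-202, which held 73.6% of the Bmp4 reads without and 75.8% with Activin A, starts at 46390550. The bases between these starts were not searched. The window of Chrd holds GGCGCC at 1 position and that of Twsg1 holds CAGAC at 2. Among 32851 promoters of this length in the table, 42.2% hold CAGAC and 9.59% hold GGCGCC. Of the 10 genes, 4 had a promoter in that table.

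All 10 genes passed the low-count filter. Without Activin A, 5 of them rose (Bmp2, Bmp7, Bmp4, Bmp1 and Bambi), 1 fell (Fst) and 4 did not pass (Nog, Grem1, Chrd and Twsg1). A gene passed at an adjusted p below 0.05 in edgeR's quasi-likelihood test over 15448 genes. By that rule 14.0% of all tested genes were higher and 15.2% lower, or 29.2% in either direction. The median log2 fold change, without minus with Activin A, was 0.32 over the 10 genes and 0.0013 over all genes tested. CPM did not overlap between the groups for 8 of the 10, against 42.9% of all tested genes.

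**Figure D1:**
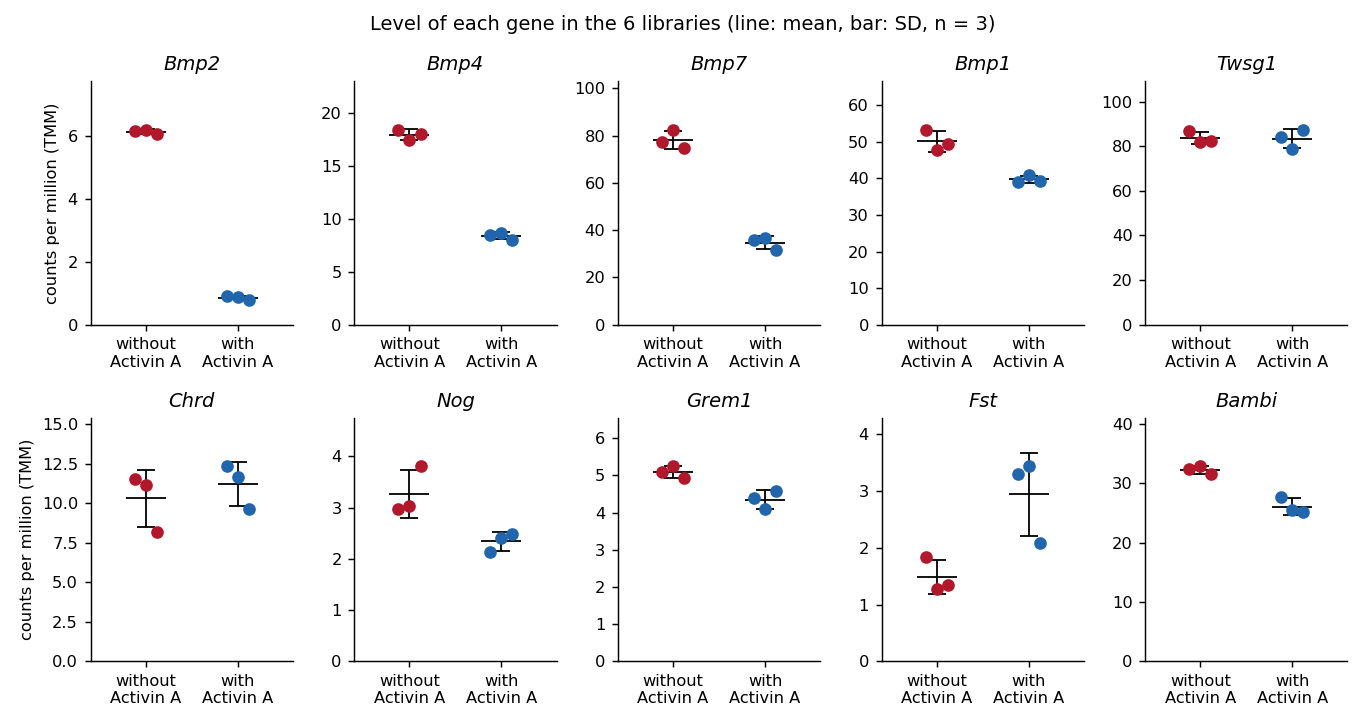
TMM-scaled CPM (vertical axes, each starting at 0) of the 10 genes in the 3 libraries without and the 3 with Activin A. Points are libraries, lines are means and bars are the SD. The groups overlap only for Twsg1 and Chrd.

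The 3 ligand genes were higher in every library without Activin A than in any library with it. Bmp2, a ligand of the BMP2/4 subgroup, had 6.15, 6.18 and 6.04 CPM without Activin A, against 0.915, 0.876 and 0.796 CPM with it. These values rest on 87, 92 and 81 reads without and 15, 12 and 8 reads with Activin A. Libraries of a group lay close together and the groups were far apart. The fold was 6.97, or log2 fold change 2.80, SE 0.19, where SE is the standard error (edgeR adjusted p = 3.66e-08). Among the 2155 genes called higher, 12 had a larger log2 fold change. Bmp2 (ENSMUSG00000027358.6) lies on chromosome 2 of GRCm38 at 133552159 to 133562885, on the plus strand.

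Bmp4, the closest relative of Bmp2, had 18.5, 17.5 and 18.0 CPM without Activin A, against 8.54, 8.69 and 8.06 CPM with it. The groups were apart, at a 2.13-fold difference (log2 fold change 1.09, SE 0.09, edgeR adjusted p = 4.13e-07). Bmp4 (ENSMUSG00000021835.15) lies on chromosome 14 at 46383520 to 46390669, on the minus strand. Its exons overlap those of the opposite-strand gene Gm15217, which had 0 reads in all 6 libraries.

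Bmp7, of the BMP5/6/7 subgroup and able to pair with BMP2 or BMP4 in heterodimers, had 77.3, 82.5 and 74.9 CPM without Activin A. It had 35.8, 36.7 and 31.5 CPM with Activin A, so the groups were again apart. The difference was 2.24-fold (log2 fold change 1.17, SE 0.07), and its edgeR adjusted p of 9.16e-09 was the smallest of the 10. Bmp7 (ENSMUSG00000008999.7) lies on chromosome 2 at 172868012 to 172940321, on the minus strand. Over the 6 libraries, the genes whose log2(CPM + 1) followed Bmp7 most closely, of 10902 protein-coding genes averaging 5 CPM or more, were Sec24c, Cryab and Ipo9, each with a Pearson r of 0.999. The libraries of a group share their condition, so such values are a description.

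**Figure D2:**
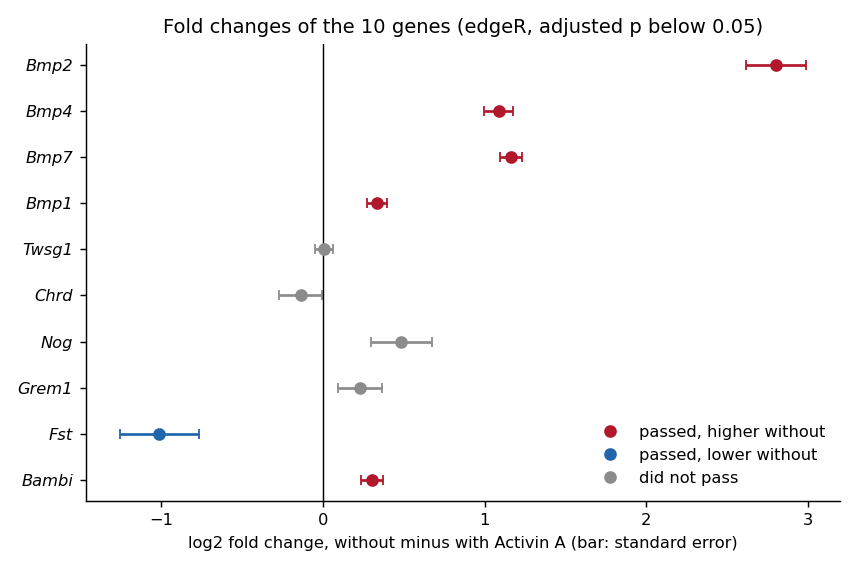
Log2 fold change of each of the 10 genes, without minus with Activin A (horizontal axis), with its standard error from edgeR. Bmp2 stands at 2.80, Bmp7 and Bmp4 at 1.17 and 1.09, and Fst at -1.01.

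Bmp1 is named among the BMPs but encodes a metalloprotease that cleaves chordin and trims procollagens. Its level was 53.3, 47.9 and 49.3 CPM without Activin A, against 38.9, 40.9 and 39.4 CPM with it. The groups did not overlap, and the rise was small, at 1.26-fold (log2 fold change 0.34, SE 0.06, edgeR adjusted p = 0.000965). Bmp1 (ENSMUSG00000022098.10) lies on chromosome 14 at 70474558 to 70520234, on the minus strand.

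Bambi encodes a transmembrane protein that resembles a type I receptor without the kinase domain. It had 32.3, 32.8 and 31.5 CPM without Activin A, against 27.6, 25.4 and 25.1 CPM with it. Its groups were apart by less than those of the ligands, at 1.23-fold (log2 fold change 0.30, SE 0.07, edgeR adjusted p = 0.00411). The call was lost with the length offset (adjusted p = 0.0628) and with limma-trend on TPM of all transcripts (0.123 and 0.128) or of coding ones (0.0793).

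Among the secreted binding proteins, Fst was the only gene called. Fst encodes follistatin, which binds activins most tightly and some BMPs less so. It had 1.84, 1.28 and 1.34 CPM without Activin A, against 3.29, 3.43 and 2.09 CPM with it, on 26, 19 and 18 reads without and 54, 47 and 21 reads with. The library with Activin A replicate 3 lay nearest to the other group, and the groups did not overlap. Fst was 2.01-fold lower, at log2 fold change -1.01, SE 0.24 (edgeR adjusted p = 0.00601). Leaving out any single library kept the log2 fold change between -1.19 and -0.90 and the adjusted p at 0.0418 or less. Fst (ENSMUSG00000021765.9) lies on chromosome 13 at 114452290 to 114458951, on the minus strand. An opposite-strand gene with overlapping exons, Gm47040, had at most 2 reads per library. Following Fst most closely over the 6 libraries were 1700017B05Rik, Sbk1 and Ltbp3, each with a Pearson r of 0.991 or 0.992.

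The other 4 binding protein genes did not pass. Nog, for noggin, had 2.97, 3.02 and 3.80 CPM without Activin A, against 2.13, 2.41 and 2.49 CPM with it. The groups did not overlap, on 25 to 51 reads per library, and the log2 fold change was 0.49, SE 0.19 (edgeR adjusted p = 0.0691). Grem1, a BMP-binding protein of the DAN family, had 5.09, 5.24 and 4.92 CPM without, against 4.39, 4.09 and 4.58 CPM with Activin A. These groups did not overlap either, at log2 fold change 0.23, SE 0.14 (edgeR adjusted p = 0.242).

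Chrd, for chordin, had 11.5, 11.2 and 8.20 CPM without Activin A, against 12.3, 11.7 and 9.65 CPM with it. The groups overlapped, with replicate 3 lowest in each, and the log2 fold change was -0.14, SE 0.13 (edgeR adjusted p = 0.489). Exons of Chrd overlap those of the opposite-strand gene Thpo, which had 28 to 67 reads per library, and the use of strand in the counting is not given in the sources used here. Twsg1 encodes a protein that binds both chordin and BMPs and can strengthen or weaken the inhibition. It had 86.8, 81.9 and 82.4 CPM without Activin A, against 84.0, 78.8 and 87.4 CPM with it. Its libraries were mixed between the groups, and the log2 fold change was 0.01, SE 0.06 (edgeR adjusted p = 0.949). The sign for Chrd and for Twsg1 turned in some of the alternatives tried, while neither passed in any.

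Levels can be compared between genes only per transcript length, for which the TPM of the protein-coding transcripts were summed. Without Activin A the order began with Bmp7 at 14.4 ± 1.11 and Twsg1 at 13.9 ± 0.367 TPM, whose ranges overlapped (SD, n = 3). Bmp1 at 7.87 ± 0.527 and Bmp4 at 7.36 ± 0.193 TPM came next and overlapped as well. Below them were Bambi at 4.25 ± 0.188, Chrd at 1.46 ± 0.410, Nog at 1.42 ± 0.188, Bmp2 at 1.17 ± 0.0428, Grem1 at 0.825 ± 0.0442 and Fst at 0.384 ± 0.0663 TPM. Of these neighbours, only Chrd and Nog overlapped. The range of Chrd, 0.989 to 1.72 TPM, also held that of Bmp2, 1.14 to 1.22 TPM.

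With Activin A, Twsg1 led alone at 13.7 ± 1.52 TPM. Bmp7 at 6.29 ± 0.137 and Bmp1 at 5.89 ± 0.332 TPM overlapped, as did Bambi at 3.39 ± 0.216 and Bmp4 at 3.35 ± 0.0906 TPM. Chrd, Nog, Fst and Grem1 followed at 1.47 ± 0.0589, 1.01 ± 0.123, 0.759 ± 0.171 and 0.698 ± 0.0809 TPM, the last pair overlapping. Bmp2 was lowest of the 10 at 0.162 ± 0.00658 TPM. By group mean, Bmp2 therefore stood in place 8 of 10 without Activin A and in place 10 with it.

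Summed by role on the same TPM scale, the ligands Bmp2, Bmp4 and Bmp7 together had 22.6, 24.4 and 21.9 TPM without Activin A, against 10.0, 9.84 and 9.55 TPM with it. The 5 secreted binding proteins together had 18.5, 18.3 and 17.2 TPM without, against 17.5, 16.2 and 19.2 TPM with Activin A. Coding transcripts of the ligands thus summed to more than those of the binding proteins in each library without Activin A, and to less in each with it. That order rested on Twsg1, which held most of the second sum, and on counting coding transcripts only. Over all transcripts the ligands summed to more in all 6 libraries, where Bmp4 alone had 20.1, 16.0 and 30.5 TPM with Activin A. With Twsg1 left out, the coding transcripts of the ligands also summed to more in all 6 libraries. The sum of the other 4 binding proteins was 4.09 ± 0.297 TPM without, against 3.94 ± 0.0316 TPM with Activin A (SD, n = 3 each). Sums of TPM describe transcripts, not the amounts of protein.

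The choice of transcripts decided how Bmp4 looked. Summed over all transcripts, Bmp4 had the highest TPM of the 10 genes in both groups, at 31.1, 33.7 and 38.8 TPM without Activin A, against 20.1, 16.0 and 30.5 TPM with it. Of that level, 77.7% ± 3.66 without and 83.2% ± 6.08 with Activin A came from Bmp4-204, a retained-intron transcript of 258 bases (SD, n = 3 each). It held 12.5, 14.3 and 16.2 estimated reads without, against 10.6, 6.80 and 9.80 with Activin A, or 5.67% ± 0.968 and 8.47% ± 3.28 of the reads of Bmp4. Salmon gave it an effective length of 23.9 bases, and TPM divides by that length.

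Of the 228 words of 31 bases in Bmp4-204, 23 are in no other annotated Bmp4 transcript; its capital bases are printed above. The 2 coding transcripts Bmp4-202 and Bmp4-201, each with 408 codons, together had 7.49, 7.45 and 7.14 TPM without, against 3.42, 3.38 and 3.25 TPM with Activin A. Over all transcripts, the call of Bmp4 was lost with an offset for average transcript length (log2 fold change 0.65, adjusted p = 0.0722) and by limma-trend fitted to log2(TPM + 1) values (0.66, adjusted p = 0.110). Over coding transcripts alone it was kept under the same offset (1.10, edgeR adjusted p = 0.000451) and on TPM (0.94, limma adjusted p = 0.000332). Fst and Bmp1 were likewise called on coding transcripts alone and not on all transcripts in both of those settings.

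**Figure D3:**
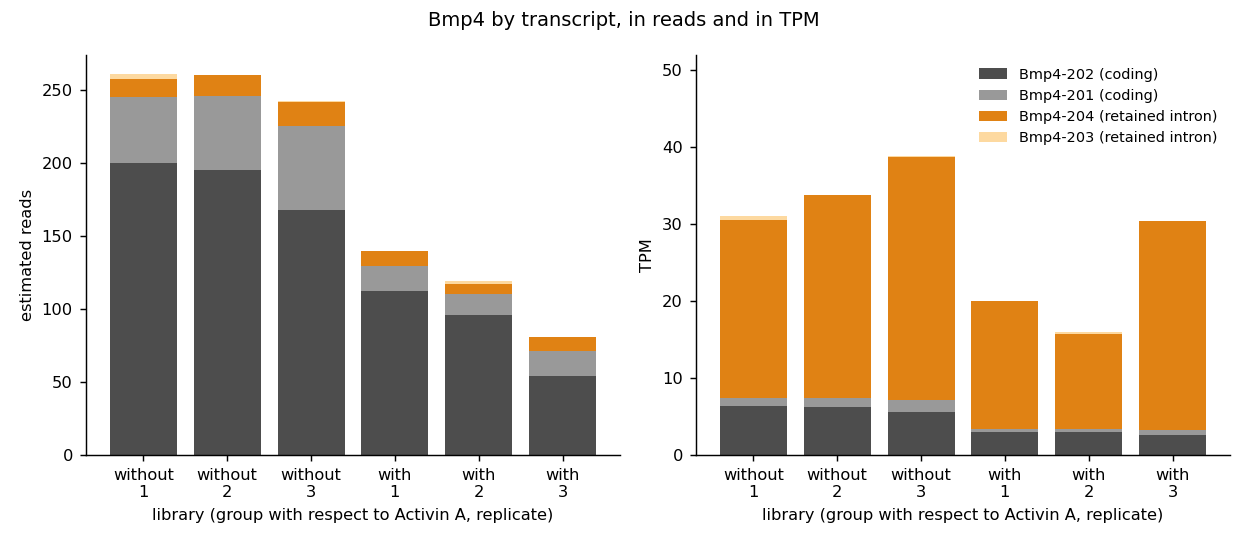
Estimated reads (left) and TPM (right) of Bmp4 in each of the 6 libraries, stacked by transcript. Bmp4-204 holds 6.80 to 16.2 reads per library and most of the TPM, while the coding transcripts hold most of the reads.

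At the level of single transcripts, 18 of the 26 were tested and 3 were called, all higher without Activin A, against 1.28% higher and 1.44% lower among the 39997 transcripts tested. They were Bmp2-201 and Bmp7-201, which held all or nearly all of their genes' reads, and Bmp4-202. Bmp4-202 had 200, 194.9 and 167.4 reads without, against 112.3, 95.7 and 54.1 reads with Activin A (edgeR adjusted p = 0.0330). It missed the threshold on leaving out any single library other than with Activin A replicate 3 (adjusted p = 0.0874 to 0.149). Bmp4-202 also missed it with no low-count filter. With the replicate block only Bmp7-201 was still called. The error of salmon in assigning reads to transcripts is not part of these p-values.

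Of the Fst transcripts in the deposited files, GENCODE M21 annotates 3 as coding, with 344 codons in Fst-201, 317 in Fst-202 and 111 in Fst-204. The deposited lengths of Fst-201 and Fst-202 were 2556 and 2612 bases, against 1851 and 2833 in that annotation, so the deposited models may not be those the codons were taken from. Fst-204 had at most 1.40 reads per library. Fst-201 had 0, 5.09 and 5.19 reads without Activin A, against 21.6, 28.4 and 3.93 reads with it, and was too low to be tested. Fst-202 had 19.6, 13.9 and 11.9 reads without, against 25.9, 18.6 and 16.0 reads with Activin A, and did not pass (edgeR adjusted p = 0.575). Fst-201 held 18.5% ± 16.1 of the reads of Fst without and 39.7% ± 20.9 with Activin A, a difference within the spread of the libraries (exact permutation test, two-sided, p = 0.3). With 3 against 3 this test cannot go below 0.1, so transcript shares are given as values with their spread. Bmp4-201 held 20.2% ± 3.37 of the reads of Bmp4 without and 15.3% ± 5.06 with Activin A (SD, n = 3 each). The libraries overlapped in this read share (exact permutation p = 0.3). Its TPM share was 3.64% ± 0.154 without and 2.01% ± 0.231 with Activin A. There the exact permutation p was 0.1, the smallest it can give. Most of the TPM of Bmp4 came from its short retained-intron transcript, so the TPM share depends on the level given to that transcript.

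Other genes of the pathway were described from 6 lists by role, which also hold ligands of the TGF-beta family that are not BMPs. With each gene counted once there were 76, of which 58 were tested, 13 rose, 9 fell and 36 did not pass. Leaving out replicate 2 of the group without Activin A, or replicate 1 of the group with it, gave 5 falls in place of 9. Their median log2 fold change was -0.02. Over all tested genes, 14.0% were higher and 15.2% lower.

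Among the 14 targets of BMP signalling with enough reads, 8 rose and 1 fell while 5 missed the threshold. The shares over all tested genes were 14.0% higher and 15.2% lower. The median log2 fold change of the targets was 0.72. The rises numbered 4 and the falls 0 in each of 5 alternatives, the length offset on all or on coding transcripts and the limma-trend fits to TPM. Id1, Id2 and Id3 hold back helix-loop-helix transcription factors that promote differentiation. Id3 had 55.4 ± 2.35 CPM without Activin A and 12.5 ± 0.751 CPM with it, a 4.45-fold rise (SD, n = 3 each, edgeR adjusted p = 3.52e-11). Id1 rose 4.31-fold and Id2 2.47-fold (edgeR adjusted p = 1.50e-08 and 4.41e-09). The target that fell was Smad7, an inhibitory SMAD that also responds to Activin and TGF-beta, at 6.55 ± 0.632 CPM without and 9.64 ± 1.19 CPM with Activin A (edgeR adjusted p = 0.00386). Its call was lost in the same 5 alternatives (adjusted p = 0.149 to 0.238). The part of BMP or of Activin signals in the changes of the Id genes and Smad7 was not tested.

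Of 7 BMP receptor genes, 2 rose, 0 fell and 5 did not pass, against 29.2% of all tested genes called in either direction. Neither receptor call was kept by limma-trend on TPM. Acvr2a, a type II receptor shared by BMPs and Activin, rose 1.39-fold at 50.6 ± 1.86 CPM without and 36.7 ± 5.86 CPM with Activin A (edgeR adjusted p = 0.000939). Bmpr1a, a BMP type I receptor, rose 1.15-fold with overlapping groups (edgeR adjusted p = 0.0299). That call was lost on leaving out replicate 1 or 3 of the group without Activin A, or replicate 1 or 2 of the group with it (adjusted p = 0.112 to 0.124). Of 5 tested BMP SMAD genes, Smad7 fell and the other 4 did not pass, with 1 rise without the library with Activin A replicate 3.

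Among the 12 other ligands of the family with enough reads, 1 rose and 4 fell while 7 missed the threshold. The shares over all tested genes were 14.0% higher and 15.2% lower. Leaving out replicate 2 of the group without Activin A, or replicate 1 of the group with it, gave 2 falls. Gdf3, a Nodal-like ligand of pluripotent cells, was 1.97-fold lower at 2.52 ± 0.450 CPM without and 4.91 ± 0.841 CPM with Activin A (edgeR adjusted p = 0.00119). Gdf15, a stress-induced ligand, was 2.01-fold lower (edgeR adjusted p = 0.00790). The other falls were the Activin subunit genes Inhba and Inhbb (edgeR adjusted p = 0.0166 and 0.0126). Inhba had 2.98 ± 0.971 CPM without and 5.05 ± 0.788 CPM with Activin A, and Inhbb 3.03 ± 0.350 and 4.89 ± 1.13 CPM. Gdf10 was higher at 0.989 ± 0.123 against 0.334 ± 0.123 CPM with Activin A, on 2 to 16 reads per library (edgeR adjusted p = 0.00934), and did not pass in DESeq2 (adjusted p = 0.0751) or with limma-trend on TPM.

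Among 17 other extracellular modulators with enough reads, 2 rose and 3 fell while 12 missed the threshold. The shares over all tested genes were 14.0% higher and 15.2% lower. Leaving out the library with Activin A replicate 3 gave 5 falls. Htra1, a secreted protease that binds TGF-beta family ligands, was 1.66-fold lower at 13.8 ± 1.20 CPM without and 22.9 ± 0.270 CPM with Activin A (edgeR adjusted p = 1.27e-05), a call that limma-trend on log2(TPM + 1) did not keep (adjusted p = 0.0560). Fbn2, a fibrillin whose microfibrils hold BMP complexes, rose 1.47-fold (edgeR adjusted p = 1.50e-05), and Rgma, a BMP co-receptor, rose 1.67-fold (edgeR adjusted p = 0.00233). The call of Rgma was lost with the length offset and with limma-trend, on all and on coding transcripts (adjusted p = 0.0502 to 0.0714). Rgmb, of the same gene family, went the other way. Its log2 fold change was -0.26, with overlapping groups (edgeR adjusted p = 0.0476). Of 5 proprotein convertase genes, whose enzymes cut ligand precursors, 4 did not pass. Pcsk4 fell by 0.54 on the log2 scale (edgeR adjusted p = 0.0498), a call lost on leaving out any single library except with Activin A replicate 3 (adjusted p = 0.0523 to 0.218).

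**Figure D4:**
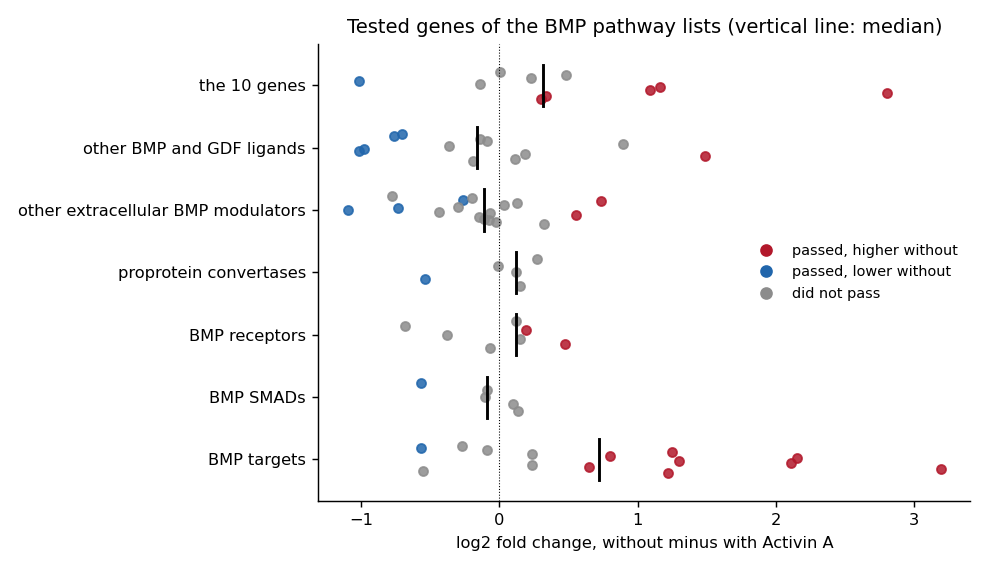
Log2 fold change, without minus with Activin A (horizontal axis), of each tested gene of the 10 described here and of the 6 lists of other pathway genes. Points are genes, coloured by the edgeR call, and vertical lines are medians, at 0.72 for the BMP targets and 0.32 for the 10 genes.

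These are bulk libraries of cells on feeders, in which fewer cells of a type and less RNA per cell cannot be told apart. Of 21 fibroblast feeder markers, all tested and none at 0, 6 rose, 8 fell and 7 did not pass. Their summed level was 1157 to 1175 TPM without Activin A and 789 to 900 TPM with it. The median log2 fold change of these markers was -0.16, opposite in sign to the change of the sum. Of 11 markers of primitive and visceral endoderm, a tissue that makes Bmp2 in the embryo, 1 rose, 1 fell, 1 did not pass and 8 were too low to test, with Ttr and Hnf4a at 0 reads in all 6 libraries. Their sum was 12.9 to 15.2 TPM without and 9.77 to 10.7 TPM with Activin A. Dab2, the marker that rose, was far above the others, at 39.6 ± 0.658 CPM without and 31.5 ± 1.85 CPM with Activin A. Cubn had 1.45 and 1.53 CPM, and Amn, which fell, had 0.426 and 0.937 CPM. Trophoblast markers summed to 6.93 to 10.4 TPM without and 6.49 to 13.5 TPM with Activin A, with 2 higher, 1 lower, 1 not passing and 4 too low to test of 8, and none at 0. Of 11 streak and mesoderm markers, 1 rose, 2 fell, 2 did not pass and 6 were too low to test, at 6.50 to 6.54 TPM without and 7.54 to 8.98 TPM with Activin A, with Mesp1 at 0 reads. The part of such cells in the changes of the 10 genes was not tested.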

How the data were processed

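The deposited files give an estimated count and a TPM value per transcript and library, in the columns that salmon writes, per the file headers. The deposited estimated counts are not normalized, and the deposited TPM values are scaled by effective length and library total. Salmon, edgeR and DESeq2 are listed in the submitters' processing notes, with no version. Annotation, build and use of strand: not given in the sources used here. Transcript and effective lengths, in bases, stand beside the values as deposited.

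Of 133618 transcripts, 133399 matched GENCODE M21 by ID with the version ignored. Unmatched transcripts, with 0.140% ± 0.0066 of reads (SD, n = 6), were not used. The annotation holds 37 transcripts of the 10 genes, of which 26 were in the deposited files, and 22 had the length of the annotation. Estimated counts were summed per gene, rounded and tested with edgeR 4.0.16 (R 4.3.3): filterByExpr defaults (minimum count 10, minimum total 15), TMM scaling and a robust quasi-likelihood F test of without against with Activin A. P-values were adjusted by Benjamini-Hochberg over all features tested, and a standard error is the fold change over the square root of F. Transcripts were tested likewise. Transcript shares were compared by an exact permutation test (scipy 1.17.1). Alternatives used DESeq2 1.42.0, limma 3.58.1, other scalings and filters, a length offset, a replicate block and the removal of libraries; those restricted to protein-coding transcripts were chosen after seeing the data.

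The members, the lists and the tests were chosen with earlier results of these data known. Named genes are the 10 members, up to 3 called genes with the smallest p per pathway list, and the 3 genes most like Bmp7 and Fst. Transcripts with at least 10% of a gene's reads are named as well. Bmp4-204, Inhba, Inhbb and Rgmb were added after their values were seen. Marker lists are given as counts and as sums of TPM over all transcripts. Pou5f1, Dab2, Cubn and Amn are named for their levels, and Lin28a and Sox2 as the epiblast markers that rose. The edgeR fit was tested on simulated data. Depth limits the genes with few reads most, Fst and Bmp2 with Activin A.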

Additional observations from a re-analysis of the deposited data

How the results depend on the processing

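The calls of Bmp2 and Bmp7 were kept in all 19 alternatives, and the calls of Bmp4, Bmp1, Fst and Bambi on leaving out any single library. Leaving out single libraries gave 1483 to 2808 genes higher and 1763 to 2881 lower, 5 members higher and 1 lower each time, 10 to 14 other pathway genes higher and 5 to 11 lower, and 2 to 3 member transcripts higher. With limma-trend on log2(TPM + 1), 778 genes were higher and 781 lower, of the members 2 and 0, and of the other pathway genes 5 and 4. With limma-trend on log2(TPM + 0.1) these were 752 and 752, 2 and 0, and 5 and 5. With the transcript length offset they were 937 and 1113 genes, 2 and 0 members, and 8 other pathway genes higher. In each of these 3 settings Bmp4, Bmp1, Fst and Bambi lost their calls. On protein-coding transcripts alone, the length offset gave 1171 genes higher and 1243 lower, with 8 and 5 other pathway genes, and limma-trend gave 890 and 905, with 5 and 5; of the members, only Bambi lost its call there, with limma-trend (adjusted p = 0.0793). The cause of the other losses was not tested.

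The log2 fold change of Twsg1 turned to -0.025 with upper-quartile scaling, -0.0035 with the filter of 1 CPM, -0.018 with the length offset and -0.0075 with that offset on coding transcripts, and ranged between -0.034 and 0.034 on leaving out single libraries. Chrd ranged between -0.22 and 0.0023 on leaving out single libraries. Chrd-201 ranged between -0.20 and 0.15, and Twsg1-201 between -0.057 and 0.0061. Replicate numbers did not pair the samples: same-numbered libraries had correlations of -0.0048, -0.016 and -0.042 in their deviations from the group means, and 0 of 6 libraries correlated best with their own number. With the replicate block 2128 genes were higher and 2298 lower, no call of the 10 genes changed, and 1 member transcript was called in place of 3.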
